A study of Mus musculus with 6 samples.

Results

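The comparison described here is that of the colon mucosa of wild-type mice 2 days after an enema of 50% ethanol with the colon mucosa of wild-type mice left untreated. It was chosen by its labels alone, and it takes 2 of the 6 arrays of the study. All mice were of the FVB/N6 strain and 8 weeks old, and each array held RNA pooled from 5 mice, so each side of the comparison is 1 pool on 1 array. The other arrays held a wild-type pool given TNBS (labelled 250 mg, without the quantity that it refers to) in 50% ethanol, and 3 pools of Foxo4 knockout mice that were untreated, given the ethanol enema or given TNBS in ethanol. The sources used here do not give the sex of the mice. Levels are background-corrected, quantile-normalized bead signals on the log2 scale, and a difference is the ethanol pool minus the untreated pool. With 1 pool a side, no difference here has a replicate check, no test was made and no p-value is given. How precise a value can be is limited by this number of arrays.

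Ethanol given into the colon is the vehicle of hapten models of colitis, where it is used because it breaks the mucosal barrier. The colon mucosa is lined by a single layer of absorptive colonocytes, mucus-secreting goblet cells and hormone-producing cells that are renewed from the crypt base, above a lamina propria with macrophages, lymphocytes, fibroblasts and vessels. In an injured epithelium, cytokines that signal through STAT3 raise acute phase and antimicrobial genes such as Lcn2, Reg3b and their feedback inhibitor Socs3, while cells at the wound edge spread, divide and change their keratins.

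Mean signal was 236.2 on the untreated array and 225.3 on the ethanol array, within the range of 225.3 to 276.7 over the 6 arrays. A probe was taken as above background at a detection score of 0.99 or more. On this measure 13117 probes were above background on the untreated array and 11876 on the ethanol array. Colon markers were high in both pools: Muc2, the main goblet cell mucin, was at 14.79 in the untreated and 14.77 in the ethanol pool, and Car1, a carbonic anhydrase of colonocytes, was at 14.44 and 14.39. Foxo4 itself was not above background in either wild-type pool, so the arrays do not check the genotype labels.

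The pools differed in a transcript that reports sex. Xist, the RNA that coats the inactive X chromosome of females, was at 9.85 in the untreated wild-type pool and at 5.64, not above background, in the ethanol pool. It was at least 16.8-fold lower after ethanol. Other pools had Xist at 5.51 (wild type, TNBS, not above background), 10.36 (knockout, untreated), 5.56 (knockout, ethanol, not above background) and 7.51 (knockout, TNBS). Xist thus separated the untreated from the enema pools in both genotypes. The other 4 X-linked genes measured, of a group known to escape X inactivation, were lower after ethanol too: Kdm6a by 0.74, Eif2s3x by 0.64, Kdm5c by 0.41 and Ddx3x by 0.26. The 5 Y-linked genes with probes (Eif2s3y, Kdm5d, Uty, Usp9y and Zfy1) were not above background on either array. The share of females in the pools and the ethanol enema cannot be told apart in any difference that follows.

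Of 8956 genes measured on the 6 arrays, 8082 were above background in at least 1 of the 2 pools and enter the comparison, 7179 of them in both, 767 in the untreated pool alone and 136 in the ethanol pool alone. After ethanol 59 genes were at least 2-fold higher (0.73% of those compared) and 55 at least 2-fold lower (0.681%). With scaling of each array to its median in place of quantile normalization, which shifts the median of all genes to -0.18, the split was 43 higher and 97 lower. The median difference over all genes was -0.01, the 5th and 95th percentiles were -0.54 and 0.50, and 47.8% of the genes were higher after ethanol and 52% lower. For 1891 genes with a second probe above background in either pool, the SD between probes of a gene was 0.23, which covers neither animals nor arrays. Among the genes past 2-fold, 32 of the 59 higher and 24 of the 55 lower were above background in both pools. The remaining 27 and 31 have only a bound: the brighter pool is set against the higher of the dim probe's own level and the lowest level above background on that array (5.56 untreated, 5.77 ethanol), and the result is written as at least N-fold. This bound reached 2-fold for 10 of the 27 and 5 of the 31. It applies to the main processing, and other settings gave some of these genes differences smaller than their bound. For a gene given by its levels alone, with 1 of them not above background, the gap is not a measured difference.

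**Figure D1:**
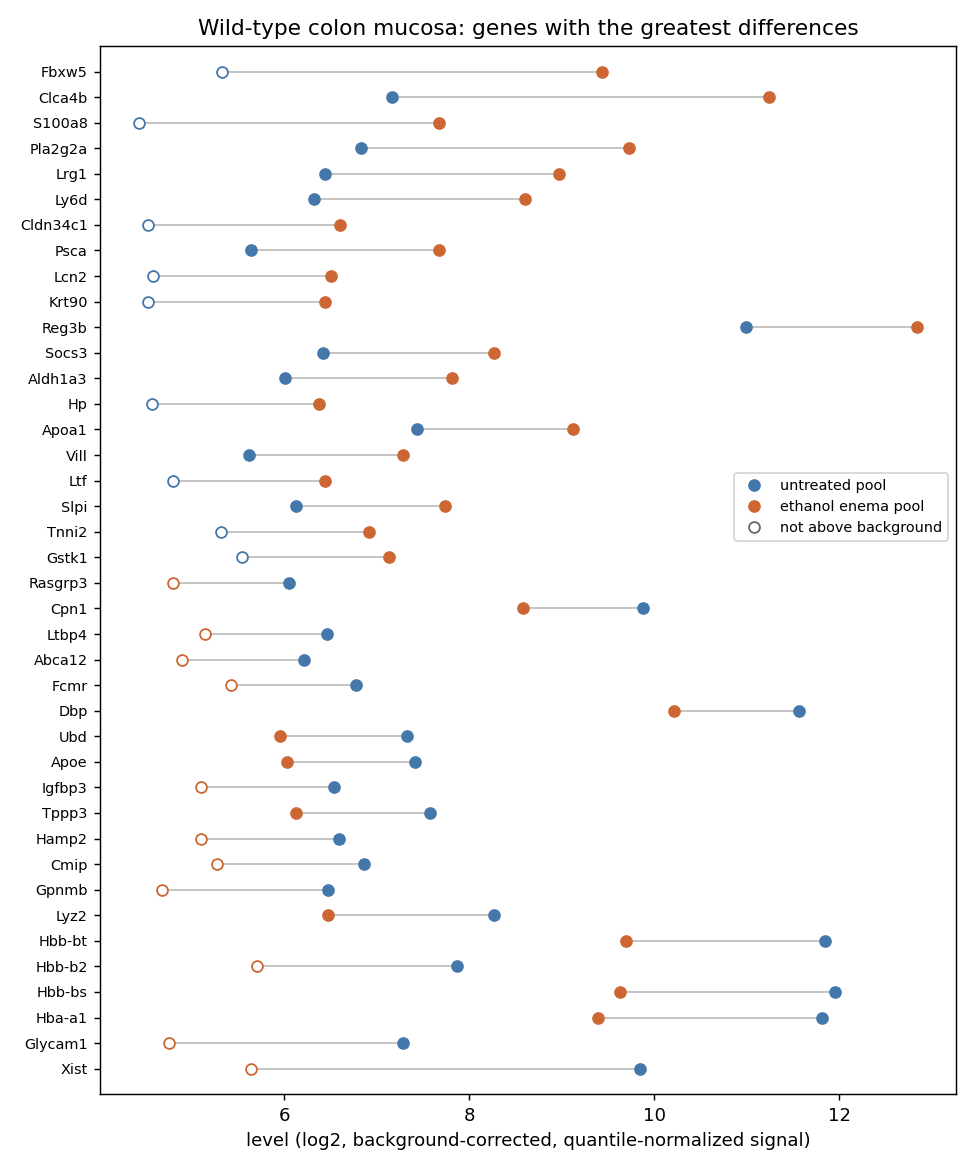
Levels (log2 signal, horizontal axis) of the 20 genes with the highest and the 20 with the lowest differences in the wild-type untreated (blue) and ethanol enema (orange) pools, 1 array each; open symbols mark a level that is not above background. Fbxw5 and Clca4b are farthest apart among the higher genes and Xist among the lower ones.

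Among the genes with the highest differences, Clca4b, a member of the family of calcium-activated chloride channel regulators, was at 7.16 in the untreated and 11.24 in the ethanol pool, which is 16.9-fold higher. The other family members measured were lower after ethanol, Clca4a by 0.65 and Clca1, a goblet cell product, by 0.39 (its second probe was higher by 0.31). Fbxw5, which encodes an F-box protein of a ubiquitin ligase and has 1 probe, was at 5.33, not above background, and 9.43, at least 14.6-fold higher. Ly6d, a GPI-anchored surface protein of stratified epithelium, went from 6.32 to 8.60 (4.86-fold), and Psca, a related surface antigen, from 5.64 to 7.67 (4.10-fold). Also among the 20 highest were Aldh1a3, a retinaldehyde dehydrogenase, at 6.00 and 7.81, and Vill, a villin-like actin-binding protein, at 5.62 and 7.29. Another was Cldn34c1, of the claudin family, at 4.53 (not above background) and 6.61, at least 2.07-fold higher. The keratin Krt90 was at 4.52 (not above background) and 6.45, at least 1.85-fold higher.

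Acute phase genes and genes downstream of STAT3 were mostly higher after ethanol. Of 13 measured genes of the group 9 were higher, with a median of 0.38 (0.19 over the 11 members above background in both pools). By level 4 were past 2-fold, among them Hp and Lcn2, whose bounds lay below 2-fold. Lrg1, a secreted leucine-rich glycoprotein, was at 6.44 and 8.97, 5.78-fold higher. Socs3, the inhibitor induced by STAT3, was at 6.42 and 8.26, 3.58-fold higher, while Stat3 itself differed by 0.38 (10.50 and 10.89). Hp, haptoglobin, was at 4.57 (not above background) and 6.38, at least 1.76-fold higher, and Lcn2, the siderophore-binding lipocalin, was at 4.58 (not above background) and 6.50, at least 1.92-fold higher. The serum amyloid genes ranged from -0.22 (Saa3) through 0.60 (Saa2) to 0.86 (Saa1), and the 4 members that were lower after ethanol lay between 0 and -0.27. The values of Stat3 and of the serum amyloid genes were picked out after they had been seen.

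Secreted antimicrobial proteins showed the same split between a few large and many small differences. Of 14 measured members 13 were higher after ethanol, with a median of 0.30 (0.25 over the 12 above background in both pools). By level 5 were past 2-fold, among them Reg3g and Lcn2, whose bounds lay below 2-fold. Pla2g2a, the secreted phospholipase that attacks bacterial membranes, was at 6.83 and 9.73, 7.44-fold higher. Reg3b, a lectin that binds Gram-negative bacteria, was already bright at 10.99 and reached 12.84, 3.60-fold higher. Slpi, a secreted protease inhibitor of mucosal surfaces, was at 6.12 and 7.74, 3.07-fold higher, and Reg3g, the lectin against Gram-positive bacteria, at 4.95 (not above background) and 6.09, at least 1.44-fold higher. The fifth was Lcn2, which is also in the acute phase group. The remaining 9 members, among them mucosal lectins and the immunoglobulin transporter, differed by -0.09 to 0.51, the last of these for Retnlb, a goblet cell product.

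The promoters of these 2 groups were searched for TTCNNNGAA, the palindromic element that STAT factors bind, in the 250 bases before each annotated start. RefSeq promoters (GRCm38.p6) were at hand for 19 of the 26 measured members, and 2 of the 19, Socs3 and Reg3b, held the motif, which 7.02% of 32851 promoter windows of that length hold. Both are printed because they are the members with a match. The motif is in capitals, on the strand of the gene, and begins 154 bases before the start in Socs3 (chr11:117969367-117969616, minus strand) and 129 bases before it in Reg3b (chr6:78370635-78370884, plus strand). A match is a description of the sequence and not of binding.
Socs3: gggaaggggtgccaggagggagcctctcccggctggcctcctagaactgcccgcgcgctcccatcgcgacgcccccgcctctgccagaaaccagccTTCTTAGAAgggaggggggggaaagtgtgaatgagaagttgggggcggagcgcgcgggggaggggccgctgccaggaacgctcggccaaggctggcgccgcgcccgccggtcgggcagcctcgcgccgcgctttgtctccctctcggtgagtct
Reg3b: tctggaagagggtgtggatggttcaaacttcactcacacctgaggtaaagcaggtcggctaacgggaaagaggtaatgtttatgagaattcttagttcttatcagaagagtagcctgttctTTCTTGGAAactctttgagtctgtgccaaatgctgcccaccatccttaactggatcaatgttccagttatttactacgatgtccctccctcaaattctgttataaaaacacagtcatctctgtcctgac

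Few transcripts of neutrophils and of inflammatory cytokines were measured. S100a8, a subunit of calprotectin that neutrophils and stressed epithelium make, was at 4.43 (not above background) and 7.67, at least 4.31-fold higher. Its partner S100a9 was not above background on either array. Ltf, lactoferrin of neutrophil granules, was at 4.79 (not above background) and 6.45, at least 1.85-fold higher, and Mmp9 was at 5.76 and 5.54 (not above background). Of the 19 neutrophil genes with probes only these 3 were above background in either pool. The defining granule genes Mpo and Elane were not above background on either array. Il1b, the interleukin, was at 4.81 (not above background) and 6.16, at least 1.51-fold higher. Of the neutrophil-attracting and inflammatory chemokines, Cxcl1 was at 5.15 (not above background) and 6.24, at least 1.60-fold higher. Ccl4 was at 4.67 (not above background) and 5.81, at least 1.19-fold higher. Il6 and Tnf were not above background on either array. Targets and feedback inhibitors of NF-kB had a median of -0.30, with 1 of 13 higher (Nfkbiz by 0.48) and none at least 2-fold apart. Over the 11 above background in both pools the median was -0.16.

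Among genes that produce or remove reactive oxygen, all 4 measured subunits of the epithelial oxidases were higher: Nox1, the superoxide-producing oxidase of colonocytes, from 6.11 to 7.32 (2.32-fold), Duoxa2 by 0.73, Noxo1 by 0.66 and Noxa1 by 0.43. Gpx2, the gastrointestinal glutathione peroxidase, was at 11.11 and 12.65, 2.92-fold higher. Gsta3, a glutathione transferase, was at 8.15 and 9.60, 2.72-fold higher, and Gstk1 at 5.55 (not above background) and 7.13, at least 2.98-fold higher. Over the 36 measured genes of the NRF2 and glutathione group 24 were higher, 3 at least 2-fold, and the median was 0.10 (with median scaling, -0.07). Members ranged from -0.40 to 1.59. Of the standard NRF2 targets, picked out after their values were seen, Nqo1 was lower by 0.24 (7.83 and 7.59), and Hmox1 was at 5.18 (not above background) and 6.10.

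Most growth and repair genes were higher after ethanol, and 2 of them at least 2-fold. Of 26 measured cell cycle genes 22 were higher after ethanol, none at least 2-fold, with a median of 0.35. The most different were Cdca3 (9.55 and 10.45), Rrm1 (6.92 and 7.61), Cdca8 (8.29 and 8.98) and Birc5 (8.46 and 9.14), all regulators of mitosis except Rrm1, a ribonucleotide reductase subunit. Of 18 cholesterol synthesis genes 15 were higher (median 0.38), led by Cyp51 (9.24 and 9.94), Sqle (9.05 and 9.69), Lss (7.05 and 7.69) and Fdps (higher by 0.63). The differences of both groups lie below 2-fold for every member, and 47.8% of all genes were higher. In the wound repair group 14 of 17 were higher with a median of 0.24. Its leading members were the keratins Krt14 of basal epithelium (6.12 and 7.35, 2.33-fold) and Krt7 of simple epithelium (11.06 and 12.10, 2.06-fold), followed by Tnfrsf12a, the TWEAK receptor, by 0.80, and Anxa1, an annexin of resolving inflammation, by 0.75. Squamous epithelium genes went both ways, with 3 of 8 higher and a median of -0.17. Apart from Krt14, Lor, the cornified envelope protein, was at 4.71 (not above background) and 6.19, at least 1.55-fold higher, Krt10 at 6.42 and 5.33 (not above background), at least 1.57-fold lower, and Ly6g6c at 10.51 and 9.41, 2.14-fold lower. The defining keratins Krt5 and Krt13 were not above background on either array.

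Interferon response genes were higher for 15 of 20 members, with a median of 0.25. Bst2, the tetherin that retains enveloped viruses, was at 5.95 and 7.02 (2.10-fold). Next were the interferon-inducible GTPases Igtp at 6.97 and 7.96, Irgm2 at 7.99 and 8.89 and Gbp3 at 6.50 and 7.07. Other GTPases of the group differed less, Ifi47 by 0.37 and Irgm1 by 0.28, and Irf7 was lower, at 9.04 and 8.51. Ifi47, Irgm1 and Irf7 were named after their values were seen. The MHC class I group, which interferons also induce, had 5 of 12 members higher and a median of -0.09, and B2m was lower by 0.45.

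**Figure D2:**
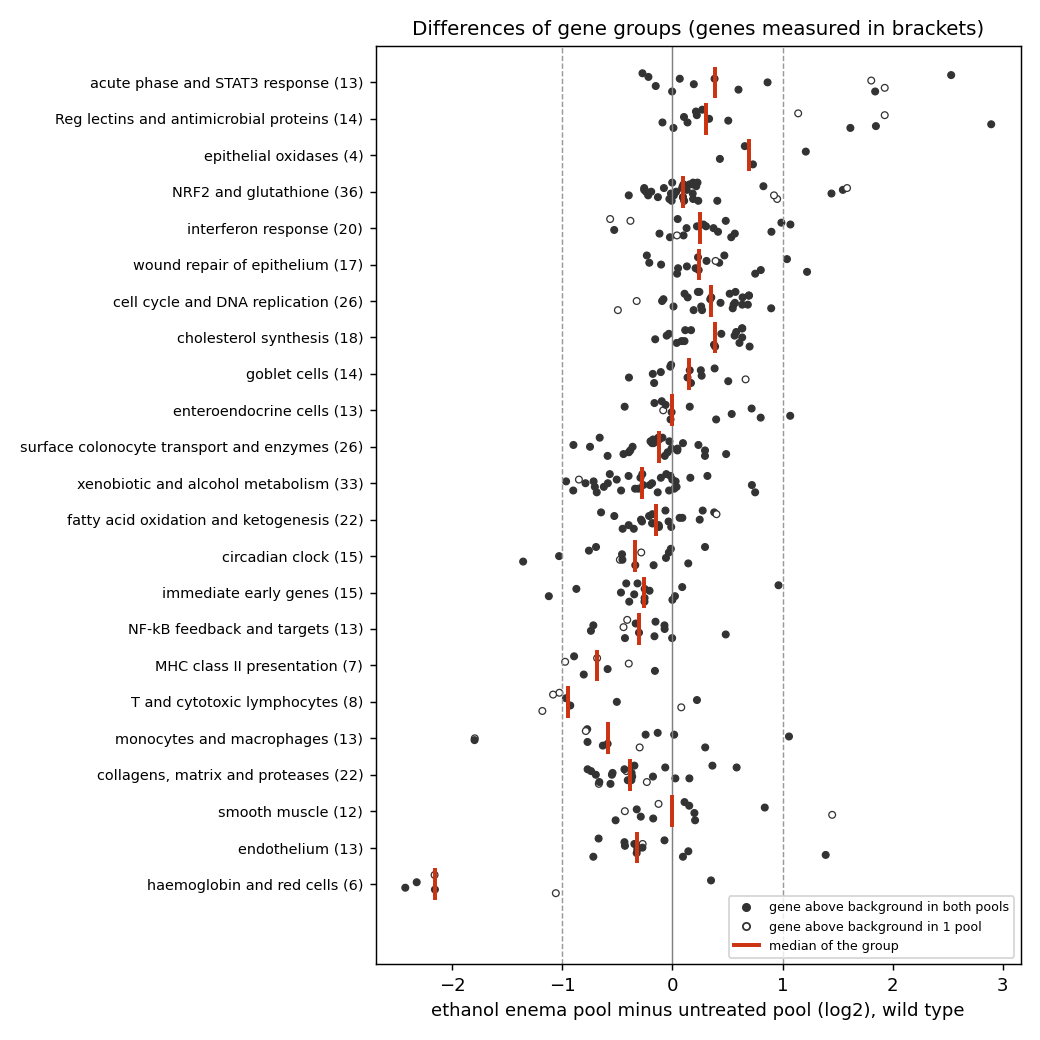
Difference between the wild-type ethanol and untreated pools (log2, horizontal axis) of each measured gene in 23 groups, with the number of genes in brackets, the group median as a red bar and dashed lines at 2-fold; open symbols mark genes above background in 1 pool only. Antimicrobial, acute phase, cell cycle and cholesterol genes lie mostly right of 0, and haemoglobin, T cell and MHC class II genes mostly left of it.

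Transcripts of red cells had the median farthest from 0 among the 46 groups, at -2.16 over 6 genes. The alpha globin Hba-a1 was at 11.81 in the untreated and 9.39 in the ethanol pool, 5.37-fold lower, and the beta globins Hbb-bs (11.95 and 9.63) and Hbb-bt (11.85 and 9.69) were 5.00-fold and 4.46-fold lower. Hbb-b2 was at 7.87 and 5.71 (not above background), at least 4.28-fold lower. These globins are close copies, and their probes may share signal. The group median rests on them. Of the members that are not globins, Alas2 was at 5.99 and 4.93 (not above background), at least 1.16-fold lower. Bpgm, named after its value was seen, was higher by 0.35. In bulk tissue, fewer cells of a type and less RNA per cell cannot be told apart. Globin levels also varied among the other 4 pools, with Hba-a1 at 11.19 (wild type, TNBS), 10.46, 10.82 and 12.08 (knockout untreated, ethanol and TNBS), all above the wild-type ethanol pool.

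Genes of lymphocytes and of antigen presentation were mostly lower after ethanol. Of 8 measured T cell and cytotoxic genes 6 were lower, with a median of -0.95 (-0.72 over the 4 above background in both pools, and -0.60 in the authors' values) and a mean level of 6.79 untreated and 6.12 after ethanol. The T cell receptor subunits were close to each other, Cd3d at 6.94 and 5.98 and Cd3g at 5.87 and 4.84 (not above background), and the chemokine Ccl5 was at 5.91 and 4.72 (not above background). All 7 measured MHC class II genes were lower. Their median was -0.68 (-0.70 over the 4 above background in both pools, and -0.43 in the authors' values). Among them were H2-Ab1 at 8.12 and 7.23 and the invariant chain Cd74 at 10.03 and 9.23 (its second probe was lower by 1.42). Ciita, the master regulator of the pathway, was at 5.90 and 4.92 (not above background), at least 1.09-fold lower. The B cell receptor subunit Cd79b was at 7.19 and 6.21. Glycam1, a mucin-like ligand for L-selectin made in high endothelial venules, was at 7.29 and 4.76 (not above background), at least 2.86-fold lower, and Fcmr, the IgM receptor of B cells, was at 6.77 and 5.42 (not above background), at least 2.00-fold lower. The 3 B cell and plasma cell genes measured had a median of -0.48, and 16 genes of that group had probes. The part of lymphoid tissue in the 2 pools was not tested.

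Macrophage genes were mostly lower. Of 13 measured monocyte and macrophage genes 10 were lower, with a median of -0.59 (-0.42 over the 10 genes above background in both pools). The mean level of the group was 7.96 untreated and 7.46 after ethanol. Lyz2, the myeloid lysozyme, was at 8.27 and 6.47, 3.47-fold lower, and Gpnmb, a glycoprotein of lipid-laden macrophages, at 6.47 and 4.68 (not above background), at least 1.63-fold lower. Apoe, the apolipoprotein that macrophages secrete, was at 7.41 and 6.03, 2.61-fold lower. Of the 3 higher members, Cd14, the co-receptor for bacterial lipopolysaccharide, was at 8.23 and 9.29, 2.08-fold higher. The others, named after their values were seen, were the mannose receptor Mrc1 by 0.30 and Plac8 by 0.02.

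Stromal and vascular genes were lower by smaller amounts. Collagens, matrix proteins and proteases had a median of -0.39 with 18 of 22 lower, led by the proteoglycan Dcn (10.10 and 9.33), Mgp (6.74 and 6.00) and the protease inhibitor Timp2 (7.93 and 7.23). Endothelial genes had a median of -0.32 with 10 of 13 lower, such as Vcam1 (6.79 and 6.07) and Emcn (lower by 0.67), but Ly6c1, a surface protein of endothelial cells and monocytes, was at 7.81 and 9.21, 2.62-fold higher. Smooth muscle genes, which mark how much of the muscle layer a mucosal sample holds, were higher for 6 of 12 members (median -0.01, above 0 in 4 of the 7 other settings). Actg2 was at 9.07 and 9.90, and Csrp1 at 4.56 (not above background) and 6.01, at least 1.37-fold higher. Tpm2 was lower, at 9.79 and 9.28. Of 4 skeletal muscle genes measured Tnni2 was at 5.32 (not above background) and 6.91, at least 2.56-fold higher, and Acta1 at 6.59 and 6.39. The pancreatic acinar genes went both ways, with a median of 0.08 over 6 genes and -0.41 over the 3 above background in both pools. Amy2a5, the amylase, was at 5.48 (not above background) and 7.06, at least 2.84-fold higher, Ctrb1, a chymotrypsinogen, at 5.22 (not above background) and 6.55, at least 1.99-fold higher, while Cela1 at 10.99 and 10.48 and Clps at 8.29 and 7.88 were lower.

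Clock output and immediate early genes were lower in the ethanol pool. Dbp, a clock-controlled transcription factor, was at 11.56 and 10.21, 2.56-fold lower, Nr1d1, the nuclear receptor REV-ERB alpha, at 9.14 and 8.11, 2.04-fold lower, and Per1, a core repressor, at 7.21 and 6.45. Of 15 measured clock genes 13 were lower, with a median of -0.34. The sources used here do not give the time of day at which tissue was taken, and its part in these differences was not tested. Among 15 immediate early genes 11 were lower with a median of -0.25, led by Egr1 (9.94 and 8.82, 2.18-fold) and the phosphatase Dusp1 (10.48 and 9.61), while Ier3, a survival gene of stressed cells, was at 7.70 and 8.66.

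Enzymes that handle alcohol and foreign compounds were mostly lower. Of 33 measured genes 26 were lower and none at least 2-fold, with a median of -0.27. Aldh1a1, a retinaldehyde dehydrogenase, was at 9.91 and 8.94, Ugt2b34, a glucuronosyltransferase, at 9.45 and 8.55, and Ugt1a1, the bilirubin glucuronosyltransferase, at 7.47 and 6.68. Picked out after their values were seen for their role in ethanol breakdown, Adh1 was at 11.57 and 11.60, Aldh2 at 13.29 and 13.10 and Aldh1b1 at 8.71 and 8.69. Adh5, picked out in the same way, was lower by 0.27. Fatty acid oxidation and ketogenesis had a median of -0.15 with 16 of 22 lower, Pdk4, a brake on pyruvate use, by 0.65 being the lowest.

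Within the epithelial lineages, hormone and transport genes were uneven. Of 13 measured enteroendocrine genes 6 were higher and 7 lower, with a median of -0.01. Among them 3 colonic hormones were higher: Insl5, a peptide of distal L cells, at 9.18 and 10.25 (2.10-fold), Pyy at 10.73 and 11.54 and Gcg at 8.67 and 9.39. The hormones Nts and Sst, named after their values were seen, differed by -0.16 and -0.01. Of 11 measured sodium channel and aldosterone response genes 7 were lower, with a median of -0.10. Among them, Fxyd4, a subunit that modulates the sodium pump, was at 10.04 and 11.14 (2.14-fold, with a second probe higher by 0.32). The sodium channel subunit Scnn1b was at 8.97 and 9.58. The subunits Scnn1a and Scnn1g, named after their values were seen, differed by -0.02 and -0.10. Surface colonocyte genes had a median of -0.12 with 19 of 26 lower, led by the phosphate transporter Slc20a1 by 0.90 (its second probe was higher by 0.11), the carbonic anhydrase Car4 (11.74 and 10.99) and the water channel Aqp8 (12.48 and 11.82). The median of goblet cell genes was 0.15 and, with median scaling, -0.01. Of 22 junction genes 15 were lower, with a median of -0.08. The pore-forming claudin Cldn2 was at 9.59 and 10.33 and Cldn7 at 11.31 and 11.88, while Marveld3, a tight junction protein, was at 10.12 and 9.56. The scaffold Tjp1 was at 5.79 and 5.00 (not above background), at least 1.01-fold lower. Genes typical of the small intestine were split, with the apolipoprotein Apoa1 at 7.43 and 9.13 (3.24-fold higher), the aminopeptidase Anpep at 6.56 and 7.58 (2.02-fold higher), and the peptide transporter Slc15a1 at 6.90 and 5.87 (2.04-fold lower). Of the 12 measured genes of this group 6 were higher and 6 lower. The ileal marker Fabp6, named after its value was seen, was at 6.12 and 6.81. The ileal bile acid transporter Slc10a2 was not above background on either array. Among crypt base genes, whose median was 0.11 (with median scaling, -0.08), Smoc2 was at 6.87 and 7.76 and the Wnt target Axin2 at 6.31 and 5.85.

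Genes of iron handling and of secretory stress differed in both directions. Hamp2, a hepcidin, was at 6.59 and 5.10 (not above background), at least 1.77-fold lower, while the transferrin receptor Tfrc was at 9.82 and 10.65 and transferrin, Trf, at 6.32 and 7.18. The metallothionein and metal handling group as a whole was even, with 7 of 14 higher. In the unfolded protein group, whose median was 0.07, Asns, the asparagine synthetase of the amino acid response, was at 7.11 and 7.94. Ero1b, the oxidase of the secretory pathway, was at 6.06 and 4.90 (not above background), at least 1.22-fold lower. Sycn, a protein of secretory granules, was bright at 13.70 and 12.63, 2.10-fold lower. It was the only gene of the Paneth cell group above background, and Lyz1 and the defensins with probes were not. Of the other lowest genes, Cmip was at 6.86 and 5.27 (not above background), at least 2.13-fold lower. Tppp3, a tubulin-binding protein, was at 7.57 and 6.12. Ubd, a ubiquitin-like modifier induced by inflammatory cytokines, was at 7.33 and 5.96, and the carboxypeptidase Cpn1 at 9.87 and 8.59. Cpn1 had a second probe, which was lower by 0.78. Glycolysis and hypoxia genes had a median of -0.06, and Hilpda, a lipid droplet protein induced by hypoxia, was highest among them at 6.33 and 7.19.

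The Foxo4 knockout pools give the same contrast on separate arrays, though in another genotype. Of 7948 genes compared there, 134 were at least 2-fold higher after ethanol (1.69%) and 23 at least 2-fold lower (0.289%). Both pairs measured 7613 genes, of which 1.23% were past 2-fold upwards and 0.25% downwards in the knockout. Past 2-fold in both genotypes were 12 higher genes, 20.3% of the wild-type and 8.96% of the knockout list, and 2 lower genes, 3.64% and 8.70% of the lists. The shared higher genes above background in all 4 pools were Ly6d (2.28 in wild type and 1.98 in the knockout), Pla2g2a (2.89 and 1.18), Gsta3 (1.44 and 1.08), Ly6c1 (1.39 and 1.15), Cd59a (1.07 and 1.58) and Pdlim7 (1.03 and 1.21). Krt14 and Vill were not above background in the untreated knockout pool, and after ethanol the bound there was at least 2.86-fold for Krt14 and at least 1.5-fold for Vill. For the other 4 both untreated pools were not above background. Tnni2 was at least 2.56-fold higher in wild type and at least 6.07-fold in the knockout, Cldn34c1 at least 2.07-fold and 1.96-fold, Ttyh1 at least 2.03-fold and 1.45-fold, and Cxcl1 at least 1.60-fold and 1.68-fold. Cd59a, Pdlim7 and Ttyh1 were named after their values were seen. The shared lower genes were not above background in either ethanol pool: Xist was at least 16.8-fold and 27.1-fold lower, and Cmip at least 2.13-fold and 1.71-fold lower. Of the 59 higher genes 46 were measured in the knockout pair, where 31 were above 0 with a median of 0.38, and 49.7% of all genes measured in both pairs were above 0. Of the 55 lower genes 48 were measured there, and 27 were below 0 with a median of -0.07, beside 50.2% of all genes.

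Several leading genes of the wild-type pair differed little or the other way in the knockout pair. Clca4b was at 10.08 in the untreated and 9.70 in the ethanol knockout pool, above the 7.16 of the untreated wild-type pool. Fbxw5 and S100a8 were not above background in either of these knockout pools, and were at 9.23 and 11.25 in the knockout pool given TNBS. Reg3b was at 12.28 and 11.43 and Socs3 at 7.62 and 7.35, both lower after ethanol in the knockout. Globins did not separate the knockout pools in the same way, with Hba-a1 higher by 0.36 and Hbb-bt lower by 0.03. Dbp was at 10.29 and 10.70, and the clock group had a median of 0.38 in the knockout beside -0.34 in wild type. Median differences of other groups in wild type and knockout were 0.38 and -0.26 (acute phase), 0.38 and -0.14 (cholesterol synthesis), 0.35 and 0.11 (cell cycle), -0.68 and 0.20 (MHC class II), and -0.95 and -0.39 (T cells), over the members measured in each pair. Lcn2 and Hp, not above background in the untreated or ethanol knockout pool, enter only the wild-type acute phase median. Without them the wild-type median was 0.19 over 11 members. Whether the genotypes differ in their response cannot be tested with 1 pool a group.

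**Figure D3:**
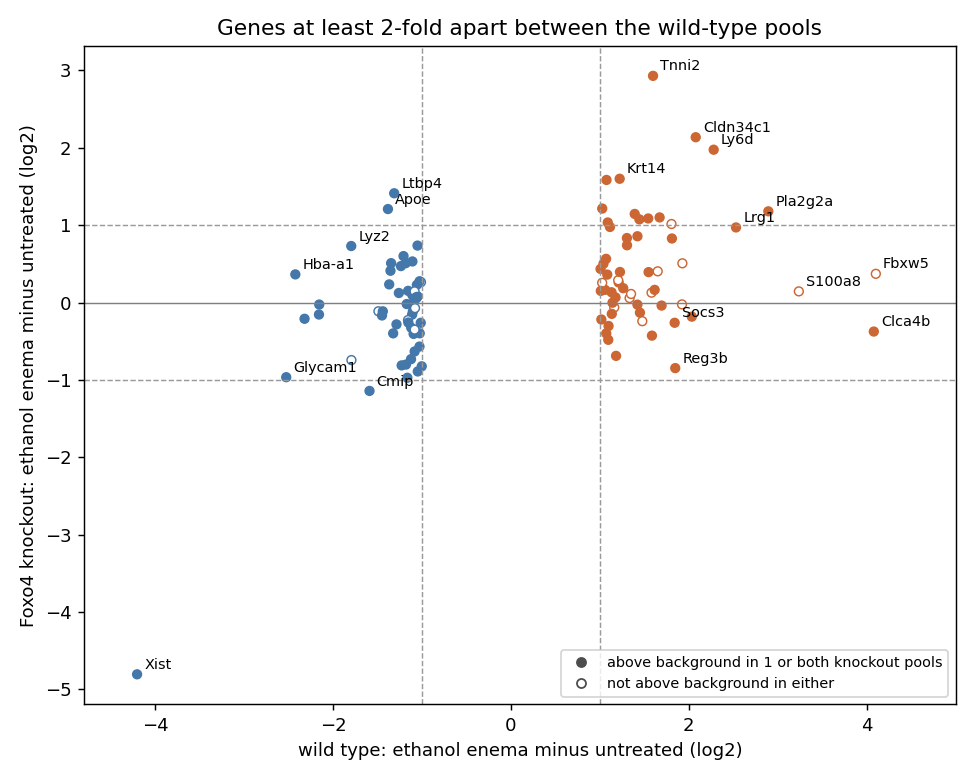
Difference between the ethanol and untreated pools in wild type (log2, horizontal axis) and in Foxo4 knockout mice (log2, vertical axis) for the genes at least 2-fold apart in wild type, higher in orange and lower in blue, with dashed lines at 2-fold; open symbols mark genes not above background in either knockout pool. Clca4b is at -0.37 on the knockout axis, and Xist is low on both.

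The wild-type pool given TNBS in ethanol shares no array with the ethanol pool. The leading genes were chosen by their gap from the untreated wild-type pool, so like levels after TNBS and ethanol do not check that gap. Xist was not above background in either enema pool of wild type. After TNBS the levels of the leading genes were as follows. Clca4b was at 11.65, Fbxw5 at 9.63, S100a8 at 7.98, Lrg1 at 9.28, Socs3 at 8.79 and Gpx2 at 12.48. Reg3b at 13.95, Pla2g2a at 10.73, Apoa1 at 10.64, Hp at 8.81, Reg3g at 8.64 and Krt14 at 9.10 were at least 1 log2 unit above their levels after ethanol, and Lcn2 was at 5.91 (not above background) beside 6.50. Globins differed from the ethanol pool, with Hbb-bt at 11.32 after TNBS and 9.69 after ethanol.

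**Figure D4:**
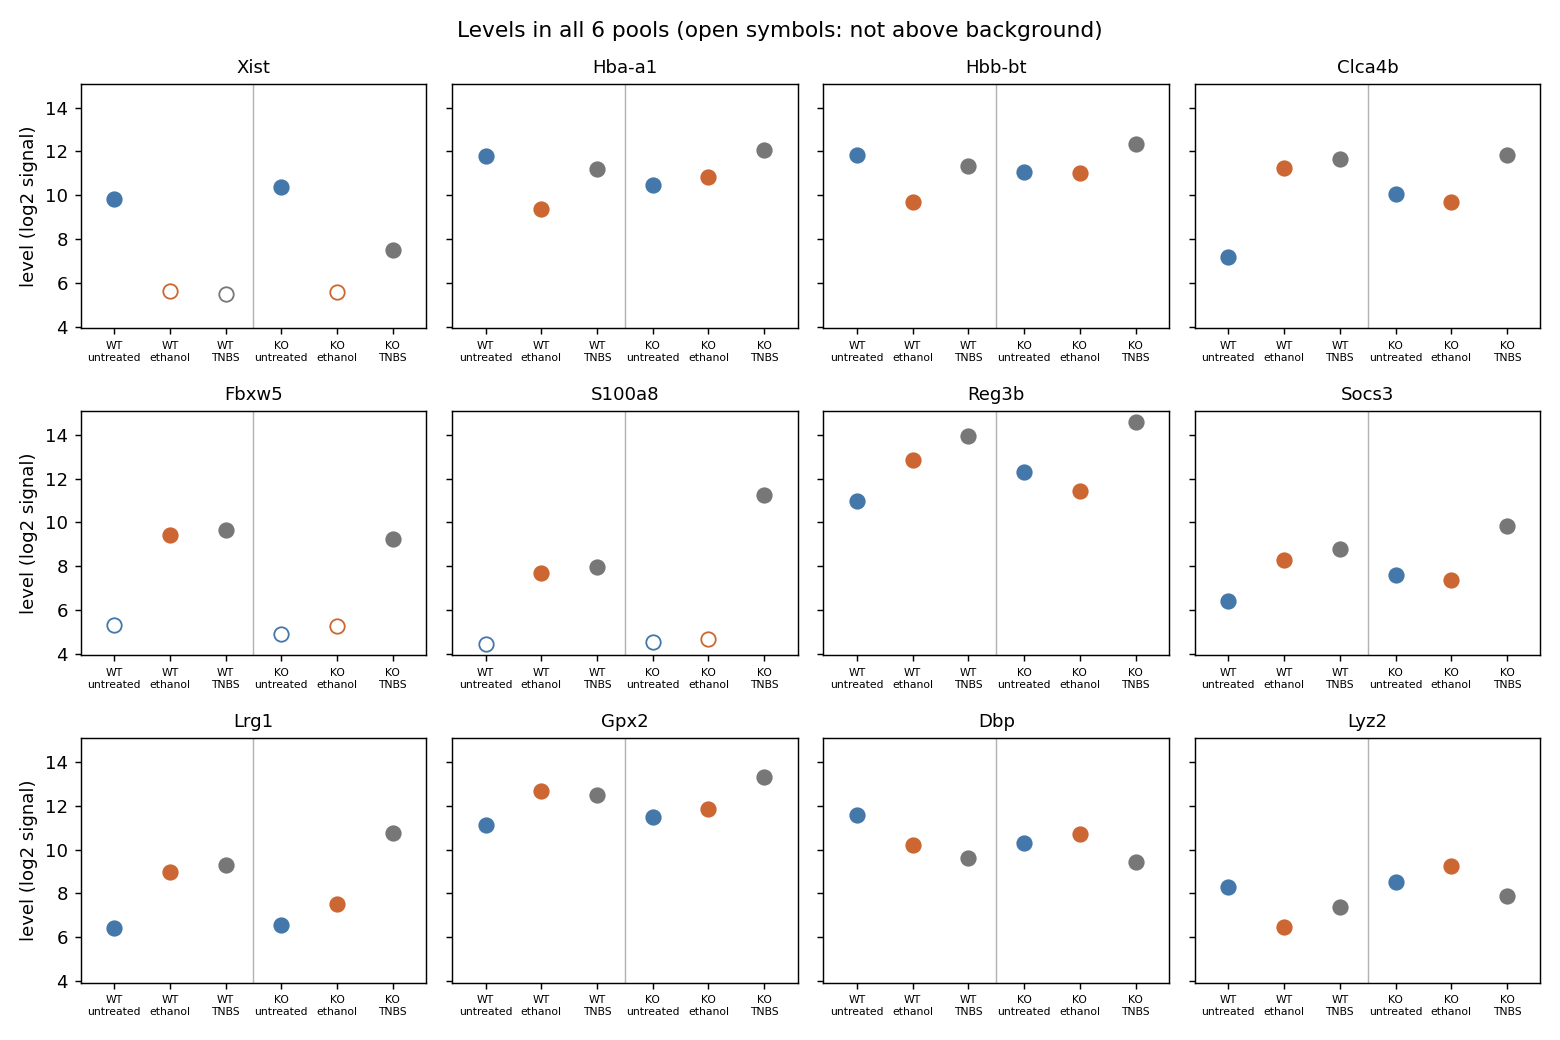
Levels (log2 signal, vertical axis) of 12 genes in each of the 6 pools, wild type left and Foxo4 knockout (KO) right of the line, with 1 array a pool and open symbols for levels not above background. Xist is high only in the untreated pools and intermediate in the knockout TNBS pool, while Fbxw5 is above background in the wild-type enema pools and the knockout TNBS pool.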

How the data were processed

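Total RNA of colon mucosa, 6 pools of 5 mice with 1 pool per group, was labelled with biotin and hybridised to Illumina mouse bead arrays, per the labels. The authors deposited unnormalized intensity values, with a p-value column per the file headers that rises with the signal (Spearman correlation over targets 0.997 to 0.998) and was read as a detection score of 1 minus p. A second table deposited by the authors holds quantile-normalized intensity values with probe names, made with software that the sources used here do not name. Both tables were joined by matching signal profiles over all 6 arrays (46614 of 46628 targets). Of 8102 joined targets that carry a gene number, 7955 matched that of the probe (98.2%), against 3 after shuffling. The 14 unjoined targets, mostly bright controls, were left out of the background fit. Signals were corrected and quantile normalized with neqc in limma 3.58.1 (R 4.3.3, offset 16), with background inferred from detection p. A gene's value is that of its brightest probe on average, among probes above background on at least 1 array. Probes with several gene symbols (10) or none (16638) were left out. The normalization was tested on simulated data with less background spread than was fitted on these arrays. That test therefore does not show how precise dim genes are here. No test between pools was made, and genes are called at 2-fold, a log2 difference of 1. Named genes are the 20 highest and 20 lowest, members of gene groups at least 2-fold apart, up to 4 members per group by size of difference, and sex-linked genes. The members, the 46 gene groups and these rules were chosen with earlier results of these data known. The remaining steps used Python 3.11.15, pandas 2.3.3 and matplotlib 3.10.9. Alternatives were the authors' normalized values, an offset of 50, median scaling, normalization of the 2 arrays alone, genes above background in both pools, the mean over a gene's probes and, added after seeing the data, the background fit with the unjoined targets.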

Additional observations from a re-analysis of the deposited data

Results flagged for a closer look

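A few results differed between the wild-type and knockout pairs, which could not be tested with 1 pool a group. Apoe, an apolipoprotein of macrophages and liver, was lower by 1.38 after ethanol in wild type (a difference of -1.38) and higher by 1.21 in the knockout. Ltbp4, a matrix protein that binds latent TGF-beta, differed by -1.31 in wild type, where it was not above background after ethanol. It differed by 1.41 in the knockout, where it was not above background in the untreated pool. As bounds, Ltbp4 was at least 1.61-fold lower in wild type and at least 2.11-fold higher in the knockout. The smooth muscle group was even in wild type (median difference -0.0079) and higher in the knockout (1.94), where 9 of the 12 passed 2-fold upwards. Collagens, matrix proteins and proteases had medians of -0.39 in wild type and 0.93 in the knockout. The part of the muscle layer in the knockout samples was not tested.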

How the results depend on the processing

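Levels near background decide how many genes pass 2-fold. The authors' values, which keep the background, gave 27 higher and 16 lower genes, an offset of 50 gave 28 and 20, and genes above background in both pools 32 and 24. Median scaling gave 43 and 97 and shifted the median of all genes to -0.18. The background fit with the unjoined targets, added after seeing the data, gave 23 and 24, of which 17 and 15 are among the 59 and 55. Normalization of the 2 arrays alone (58 and 52) and the mean over probes (54 and 53) stayed within 1.5 times. None of the genes past 2-fold changed sign where a setting gave them a value, which for genes above background in both pools are 32 of the 59 and 24 of the 55. Of the 46 group medians 32 kept their sign throughout, and 10 of the other 14 turned negative under median scaling. Sizes depended more on the setting: with the unjoined targets the median of T cell genes was -0.14, of MHC class II -0.13, of macrophages -0.15, of B cells -0.15, of clock genes -0.07, of matrix genes -0.13, of endothelium -0.10 and of cholesterol synthesis 0.18. Under median scaling the medians were 0.20 for acute phase, 0.14 for antimicrobial, 0.18 for cell cycle and 0.19 for cholesterol genes, and -0.51 for clock genes. No paired analysis was possible because each group has 1 pool. Dim genes have only bounds, which were set under the main processing and need not hold in other settings. The smallest log2 difference over the settings was 0.88 for S100a8 (bound 2.11), 2.62 for Fbxw5 (3.87) and 0.41 for Gstk1 (1.57). For Xist it was -3.05 and for Glycam1 -0.58, with bounds of 4.07 and 1.52. No setting replaces replicates.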
